A study of Homo sapiens with 4 samples.

Results

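The genes described here are 10 immediate early genes: the AP-1 subunits FOS, FOSB, FOSL1, FOSL2, JUN, JUNB and JUND, the zinc finger factor EGR1, and IER2 and IER3. They were picked by gene symbol from the 23228 symbols counted in ES2 cells, a cell line from a human ovarian cancer that was grown in RPMI with serum. Vehicle cells received 0.1% DMSO and treated cells received EC359, a small-molecule inhibitor of the leukemia inhibitory factor receptor (LIFR), at 10 nM. Both were harvested after 12 h, and 2 libraries were sequenced per treatment, so all values come from a single line, dose and time.

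Immediate early genes are transcribed within minutes of a stimulus such as serum, a growth factor or stress, without the need for newly made protein. ERK, JNK and p38 kinases reach them through serum response factor, its ternary complex cofactors and CREB-type factors, and AU-rich elements in many of their mRNAs keep the transcripts short-lived. FOS proteins pair with JUN proteins through leucine zippers to form AP-1, which binds promoters of genes for proliferation, invasion and stress. EGR1 is a separate factor of the same response. The receptor that EC359 is made against signals through JAK kinases to STAT3 and also to ERK, so such genes can lie downstream of it. Serum is known to drive them as well, and its part in these cultures was not tested.

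Reads counted on genes came to between 25572494 and 31707553 per library, higher in both EC359 libraries, and 12706 genes had enough counts to be tested. The 2 vehicle libraries differed beyond counting noise (reduced chi-square 3.69), as did the 2 EC359 libraries (2.65). Of the epithelial keratins, KRT7, KRT8 and KRT18 had 556 to 8979 reads and KRT19 had 5 to 23, whereas the epithelial marker EPCAM had 0 to 2. Of the Mullerian and ovarian carcinoma markers, MUC16 was at 0 in all 4 libraries, PAX8 had 24 to 41 reads and WT1 had 76 to 119. The mesenchymal markers VIM, FN1 and CDH2 had 3695 to 153104 reads. The leukocyte markers PTPRC and CD3E had 0 or 1 read, and LYZ had 3 to 6. Among endothelial markers CDH5 was high, with 3118 to 3920 reads, while PECAM1 and VWF had 0 to 2. EPCAM and MUC16 were thus at or near 0 in this line.

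The promoters are shown first, because promoters hold elements through which such genes are known to be switched on. Only the 250 bases before each start were searched, and elements farther upstream would be missed. RefSeq sequence was found for 8 of the 10 genes, without FOSL1 and IER3. The windows below start 250 bases before the RefSeq transcription start and stop 10 bases before it, and each was placed in GRCh37, the assembly that UCSC names hg19, by a unique exact match. They are given 5′ to 3′ on the strand of the gene for EGR1 (chr5:137800918-137801157, plus strand), FOS (chr14:75745281-75745520, plus strand), FOSB (chr19:45971004-45971243, plus strand) and JUN (chr1:59249730-59249969, minus strand). These are the genes that carry the comparison, and JUN is shown as the JUN family gene with the highest level per length. Capitals mark the core of the cAMP response element, TGACG or its reverse complement CGTCA, and in EGR1 also CArG boxes, to which serum response factor binds.
EGR1: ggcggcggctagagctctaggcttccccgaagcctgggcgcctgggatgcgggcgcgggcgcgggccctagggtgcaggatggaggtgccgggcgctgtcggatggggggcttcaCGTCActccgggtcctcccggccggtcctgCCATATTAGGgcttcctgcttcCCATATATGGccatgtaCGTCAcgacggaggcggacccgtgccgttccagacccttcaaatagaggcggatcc
FOS: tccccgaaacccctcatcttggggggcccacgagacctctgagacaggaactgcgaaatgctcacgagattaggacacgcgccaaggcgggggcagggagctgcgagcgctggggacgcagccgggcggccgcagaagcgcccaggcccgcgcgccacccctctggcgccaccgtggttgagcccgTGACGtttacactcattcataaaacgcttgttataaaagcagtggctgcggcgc
FOSB: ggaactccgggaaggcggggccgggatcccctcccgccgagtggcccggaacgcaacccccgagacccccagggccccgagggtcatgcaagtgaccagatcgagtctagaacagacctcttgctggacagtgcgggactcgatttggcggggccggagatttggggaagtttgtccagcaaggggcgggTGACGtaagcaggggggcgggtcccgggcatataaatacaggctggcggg
JUN: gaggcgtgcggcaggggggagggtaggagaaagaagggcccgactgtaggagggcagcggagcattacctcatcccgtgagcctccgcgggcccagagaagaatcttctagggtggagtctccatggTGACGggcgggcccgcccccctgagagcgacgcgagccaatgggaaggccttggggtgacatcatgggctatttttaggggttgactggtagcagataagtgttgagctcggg

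Motifs were searched on both strands of the 250 bases. All 8 promoters held the TGACG core, against 21.2% of 35116 RefSeq promoters searched over the same length. In FOS it lay 64 to 60 bases and in FOSB 60 to 56 bases before the start, followed in both by a TATAAA box, at 33 to 28 and 30 to 25 bases. TATAAA on either strand was present in FOS, FOSB and JUNB, and in 10.7% of all promoters. Within these 250 bases EGR1 alone of the 8 held CArG boxes, at 105 to 96 and 83 to 74 bases before its start. CArG boxes farther upstream, in FOS or another gene, were not searched for. A CArG box occurred in 1.16% of all promoters. EGR1 also held a GCGNGGGCG match, the motif of EGR1 itself (8.41% of all promoters), and a TTCNNNGAA match of the STAT type (6.57%). The full element TGACGTCA, which contains the core, was found in JUND only (1.65% of all promoters). The exact letters TGANTCA, the short form of the AP-1 site, were in none of the 8 (6.57% of all). The JUN window holds tgacatca, which neither pattern counts, and such variants were not searched for. GGGCGG, the GC box, was present in 6 of the 8 and in 42.6% of all promoters. Such matches describe letters in a short window and do not show binding.

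Levels of the 10 genes differed widely, as the plot of RPKM values shows (reads divided by transcript length and library size). FOSL1, which encodes FRA1, stood highest per length, with an RPKM of 335 ± 13.6 in vehicle cells and 370 ± 9.63 in EC359 cells (mean ± SD of 2 libraries, as for all RPKM values here). JUN followed with 98.3 ± 10.5 and 110 ± 7.86 on the same scale. IER3, an early response gene linked to survival under stress, had 57.7 ± 4.69 with vehicle, and IER2 had 24.2 ± 2.81. FOSL2 (18 ± 0.417) and EGR1 (14.5 ± 0.252) came next with vehicle, and with EC359 these neighbours lay within their spread, at 17.8 ± 0.491 and 17.5 ± 0.919. The lowest levels per length with vehicle were those of JUNB (7.47 ± 1.89), JUND (2.75 ± 0.128), FOS (2.16 ± 0.276) and FOSB (1.49 ± 0.141). With EC359, JUND (3.27 ± 0.763) and FOS (3.03 ± 0.289) were not separated beyond their spread.

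**Figure D1:**
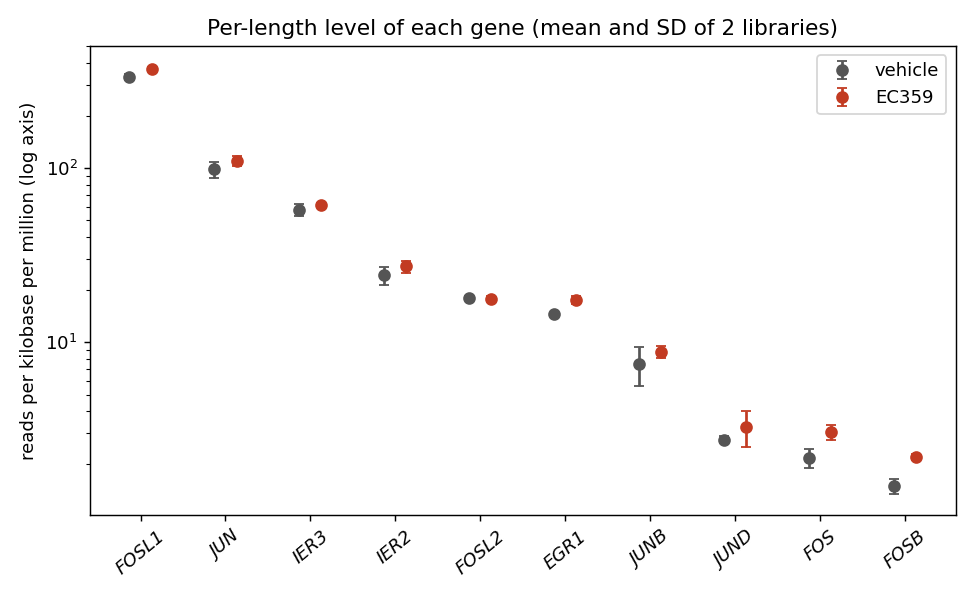
RPKM, which is reads divided by main transcript length and library size, on a log axis for each of the 10 genes, with the mean and SD of 2 libraries per treatment. FOSL1 stood at 335 with vehicle and FOSB at 1.49.

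Within the FOS family, FOSL1 made up 93.8 to 94.1% of the summed level per length in the 4 libraries, and FOSL2 4.54 to 5.09%. FOS itself made up 0.679 and 0.536% with vehicle and 0.734 and 0.81% with EC359. FOSB, its close relative, made up 0.4 and 0.433% with vehicle and 0.586 and 0.53% with EC359. The shares of FOS and of FOSB were higher in each EC359 library than in either vehicle library, and that of FOSL2 was lower. In the JUN family, JUN made up 89.8 to 91%, JUNB 6.14 to 7.52% and JUND 2.27 to 2.96%, and the ranges of the treatments overlapped for all of them. Family shares were not tested. Transcript GC content was 56.1% for JUN, 64.9% for JUNB and 69.9% for JUND, and its part in these levels was not tested. In bulk RNA, a change in every cell and a change in the number of cells that express a gene cannot be told apart.

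Each gene was tested by the quasi-likelihood method of edgeR, its p was adjusted over all genes tested (Benjamini-Hochberg), and a gene counts as called where the adjusted p was under 0.01. All 10 genes passed the filter on low counts. None of them was called, with 139 genes called in all, which is 1.09% of those tested in either direction and 0.299% if only higher genes are counted. Limma voom called 0 of the 10 and 146 of the 12706 genes tested. The exact test of edgeR called FOSB and EGR1, and 568 of the 12706. DESeq2 gave no adjusted p for FOS, FOSB, JUNB and JUND, whose counts are low, and called 0 of the other 6. At an adjusted p under 0.05, FOSB and EGR1 were higher with EC359, 2 of 10 genes against 1.68% of all genes. At an unadjusted p under 0.05, FOSB, EGR1, FOSL1, FOS and JUN were higher, 5 of 10 against 10.7% of all genes, and 0 were lower. With each library left out in turn, the log2 fold change ran from 0.46 to 0.65 for FOSB and from 0.22 to 0.32 for EGR1. It ran from 0.10 to 0.18 for FOSL1, from 0.36 to 0.62 for FOS and from 0.06 to 0.27 for JUN. A fit with a lone library in a group cannot tell whether these genes would still pass. The fold change was above 0 for 9 of the 10, FOSL2 being the exception, and for 51% of all genes. The median log2 fold change of the 10 genes was 0.20, and that of all genes tested was 0.00289.

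**Figure D2:**
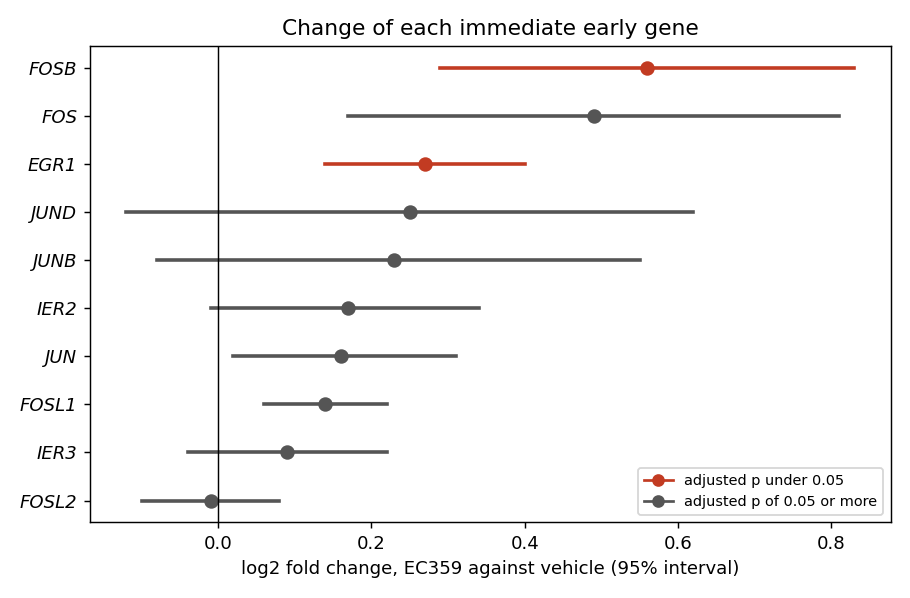
Log2 fold change of each gene, EC359 against vehicle, with its 95% interval from edgeR's quasi-likelihood fit on 2 libraries per treatment. FOSB at 0.56 and EGR1 at 0.27 are drawn in red for an adjusted p under 0.05, and the interval of FOSL2 runs from -0.10 to 0.08.

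FOSB encodes a FOS protein that is induced together with FOS and lies on chromosome 19 of GRCh37 from 45971253 to 45978437. Its normalized read counts, which are counts scaled to the mean effective library, were 148 and 169 with vehicle and 241 and 226 with EC359. The lower EC359 value exceeded the higher vehicle value. The log2 fold change was 0.56 (standard error 0.121, 95% interval 0.29 to 0.83), so that the level was 47.2% higher, with an adjusted p of 0.0301. By log2 fold change it ranked 213 from the top among the 12706 genes tested. The values rest on 133 to 272 reads per library, and the promoter shown above is that of this gene.

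FOS, the founding member of the family, lies on chromosome 14 from 75745529 to 75748933 and had the next largest fold change. Its normalized counts were 140 and 117 with vehicle and 168 and 192 with EC359, with no overlap between treatments. The log2 fold change was 0.49 (standard error 0.144, interval 0.17 to 0.81, adjusted p = 0.0831), which did not pass. Between 105 and 206 reads per library lie behind these values.

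FOSL1, on the minus strand of chromosome 11 from 65659520 to 65668044, had by far the highest counts of the family, with 15651 and 16577 normalized counts with vehicle and 17435 and 18089 with EC359. The EC359 libraries were again above the vehicle libraries, by a smaller margin. The log2 fold change was 0.14 (standard error 0.0362, interval 0.06 to 0.22, adjusted p = 0.0572). This interval lies below that of FOSB, although the difference between the genes was not tested. FOSL2, which encodes FRA2 and lies on chromosome 2 from 28615315 to 28640184, had 3345 and 3457 normalized counts with vehicle and 3313 and 3445 with EC359. These overlapped, and the log2 fold change was -0.01 with an interval of -0.10 to 0.08.

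**Figure D3:**
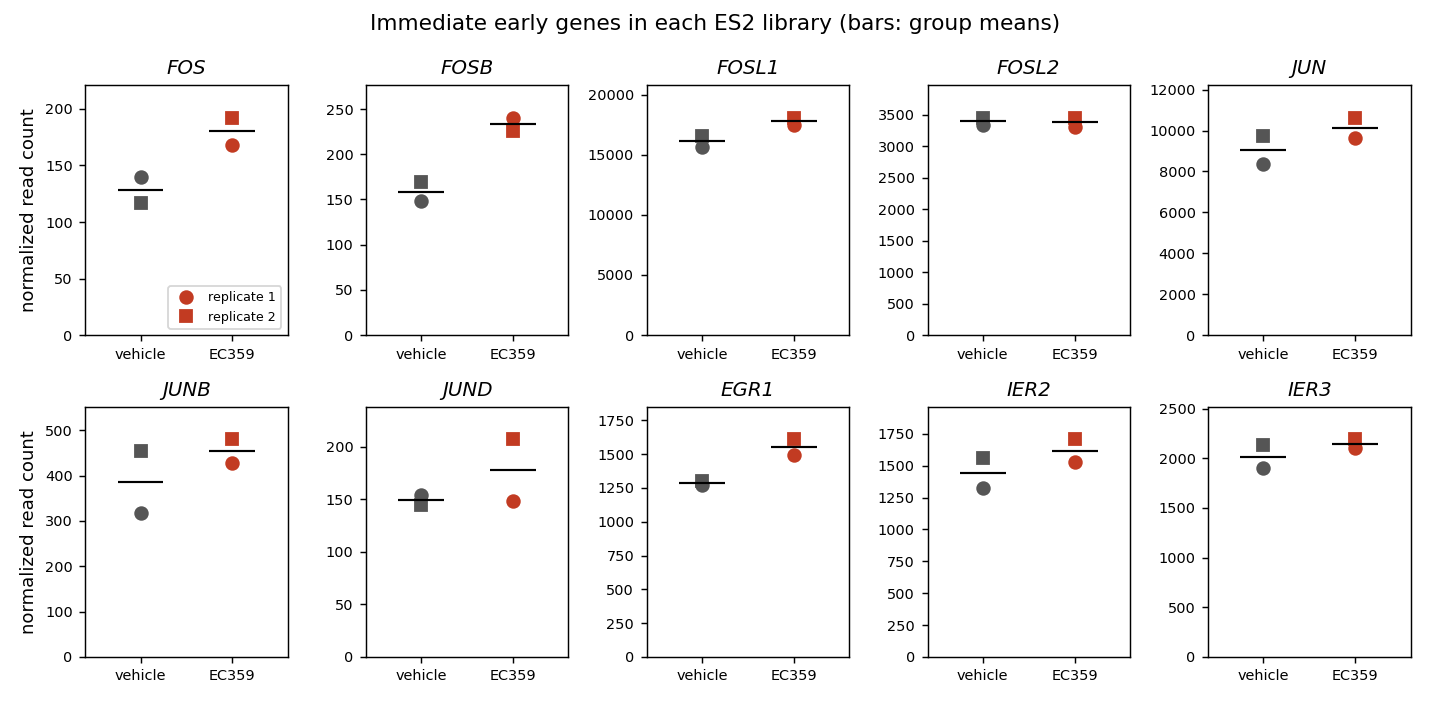
Normalized read counts (counts scaled to the mean effective library) of each gene in each library, from 0 on each vertical axis, with circles for replicate 1, squares for replicate 2 and bars for the mean of each treatment. FOS, FOSB, FOSL1 and EGR1 have both EC359 libraries above both vehicle libraries, and the other 6 genes overlap.

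JUN, whose protein pairs with FOS proteins and also with itself, lies on the minus strand of chromosome 1 from 59242517 to 59249720. It had 8350 and 9717 normalized counts with vehicle and 9613 and 10635 with EC359. Vehicle replicate 2 and EC359 replicate 1 were at nearly the same level, so the treatments overlapped. The log2 fold change was 0.16 (standard error 0.0655, interval 0.02 to 0.31, adjusted p = 0.181). It was 0.06 without vehicle replicate 1 and 0.09 without EC359 replicate 2, and 0.27 without vehicle replicate 2.

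JUNB, a JUN protein with weaker transactivation that STAT3 is known to induce, lies on chromosome 19 from 12902300 to 12904129. It had 317 and 455 normalized counts with vehicle and 428 and 480 with EC359, again with vehicle replicate 2 inside the EC359 range. Its log2 fold change was 0.23 (interval -0.08 to 0.55, adjusted p = 0.37), and without vehicle replicate 1 it was 0.00. JUND, on the minus strand of chromosome 19 from 18390504 to 18392432, had 154 and 145 normalized counts with vehicle and 149 and 207 with EC359. Only EC359 replicate 2 was high, and without it the log2 fold change went from 0.25 to -0.01. The JUND transcript has a GC content of 69.9%, the highest of the 10. Its log2 fold change was 0.04 once the trend of each library against GC content was removed. The part of GC content in the change of JUND was not tested.

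EGR1 lies on chromosome 5 from 137801168 to 137804992 and had the lowest p of the 10 genes. Its normalized counts were 1270.4 and 1302 with vehicle and 1495 and 1609.8 with EC359. The replicates were close together and the treatments did not overlap. The log2 fold change was 0.27 (standard error 0.0578, interval 0.14 to 0.40, adjusted p = 0.0284), so that the level was 20.7% higher, which passed 0.05 and not 0.01.

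IER2, a nuclear immediate early protein, lies on chromosome 19 from 13261225 to 13265725 and had 1324 and 1560.0 normalized counts with vehicle and 1532 and 1708 with EC359. IER3, on the minus strand of chromosome 6 from 30710976 to 30712325, had 1897 and 2129 with vehicle and 2105 and 2191 with EC359. In both genes vehicle replicate 2 was above EC359 replicate 1. Their log2 fold changes were 0.17 (interval -0.01 to 0.34, adjusted p = 0.257) and 0.09 (interval -0.04 to 0.22, adjusted p = 0.395). Without vehicle replicate 1 they were 0.05 and 0.01, without EC359 replicate 2 they were 0.09 and 0.06, and without vehicle replicate 2 they were 0.28 and 0.17.

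In all, 4 of the 10 genes had both EC359 libraries above both vehicle libraries, against 26.1% of all genes tested, and 0 had both below. FOS, FOSB, FOSL2, JUN, JUND and EGR1 overlap no exon of another annotated gene and share none of their 50-base windows with other transcripts, and FOSL1 shares 3.57% with a pseudogene. Exons of JUNB, IER2 and IER3 overlap an annotated gene on the opposite strand, with 11.8%, 41.3% and 35.9% of their windows shared, so their counts are uncertain because the strand setting of the counting is not given. With the trend against GC content removed, 1149 of the 12706 genes tested were called. FOSB, FOSL1, JUN and EGR1 were among them, with log2 fold changes of 0.57, 0.15, 0.18 and 0.29. In that run FOS, IER3 and FOSL2 had 0.50, 0.10 and 0.01, and JUNB, IER2 and JUND had 0.15, 0.12 and 0.04. The median of the 10 genes was then 0.149. Without vehicle replicate 1 the median log2 fold change of the 10 genes was 0.0799, and without EC359 replicate 2 it was 0.102.

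The genes whose pattern over the 4 libraries was nearest to those above were sought among 11204 other tested genes with at least 50 normalized counts, by the root mean square difference of centred log2 CPM. DDX60 was nearest to FOS (difference 0.0119) and OSBP2 followed (0.0216). AKTIP (0.00655) and HELQ (0.00763) were nearest to JUN, and ZNF213 (0.00504) and SQSTM1 (0.00885) to EGR1. With 4 libraries and this many candidates, near neighbours are found for most patterns, and the distances are given as a description.

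Other genes of the pathway were taken from lists written from general knowledge, and are shown in the plot of the pathway lists. Among bZIP proteins that pair with FOS or JUN, ATF3 was called higher, as 1 of 6 tested. ATF3, a stress-induced repressor, had 152 and 141 normalized counts with vehicle and 249 and 276 with EC359 (log2 fold change 0.84, standard error 0.12, adjusted p = 0.0055). DESeq2 gave no adjusted p for ATF3. The list's median log2 fold change was 0.00163. Of the other EGR factors and their NAB corepressors, 0 of 4 tested were called and 0 had an unadjusted p under 0.05 by the quasi-likelihood test. NAB2 had the lowest p of these (log2 fold change -0.08, adjusted p = 0.571), and EGR3 had only 12 to 16 normalized counts. DESeq2, the exact test and limma voom called 0 genes of this list, and the same holds for serum response factor with its cofactors and for the AU-rich mRNA factors. Genes with low counts can lack an adjusted p in DESeq2, so its 0 covers only genes that had one.

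Of 35 other immediate early genes tested, 0 were called higher and 1 was called lower, with a median of 0.0649. DUSP5, a nuclear phosphatase of ERK, was the gene called, with 5741 and 5631 normalized counts with vehicle and 4908 and 4849 with EC359 (log2 fold change -0.22, standard error 0.0347, adjusted p = 0.00781). At an unadjusted p under 0.05, 9 of these genes were higher, against 10.7% of all genes tested, and 4 were lower. The share of lower genes over all tested was not computed, here or for the lists below. A fold change above 0 was found in 22 of the 35, against 51% of all genes.

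Upstream of the promoters, MAP2K1 was the 1 of 18 tested MAP kinase pathway genes that was called. MAP2K1 encodes MEK1, the kinase that activates ERK, and had 4341 and 4284 normalized counts with vehicle and 3645 and 3576 with EC359 (log2 fold change -0.26, standard error 0.0371, adjusted p = 0.0055). The median of that list was 0.031, with a fold change above 0 in 12 of the 18, against 51% of all genes. Serum response factor and its cofactors had 0 of 6 called by the quasi-likelihood test, 0 higher and 1 lower at an unadjusted p under 0.05, and a median of -0.00495. SRF had the lowest p of them (log2 fold change -0.14, adjusted p = 0.12). Of 10 factors that bind or degrade AU-rich mRNAs, 0 were called and 0 had an unadjusted p under 0.05, with log2 fold changes from -0.08 to 0.09, and TIA1 had the lowest p (log2 fold change 0.09, adjusted p = 0.264).

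**Figure D4:**
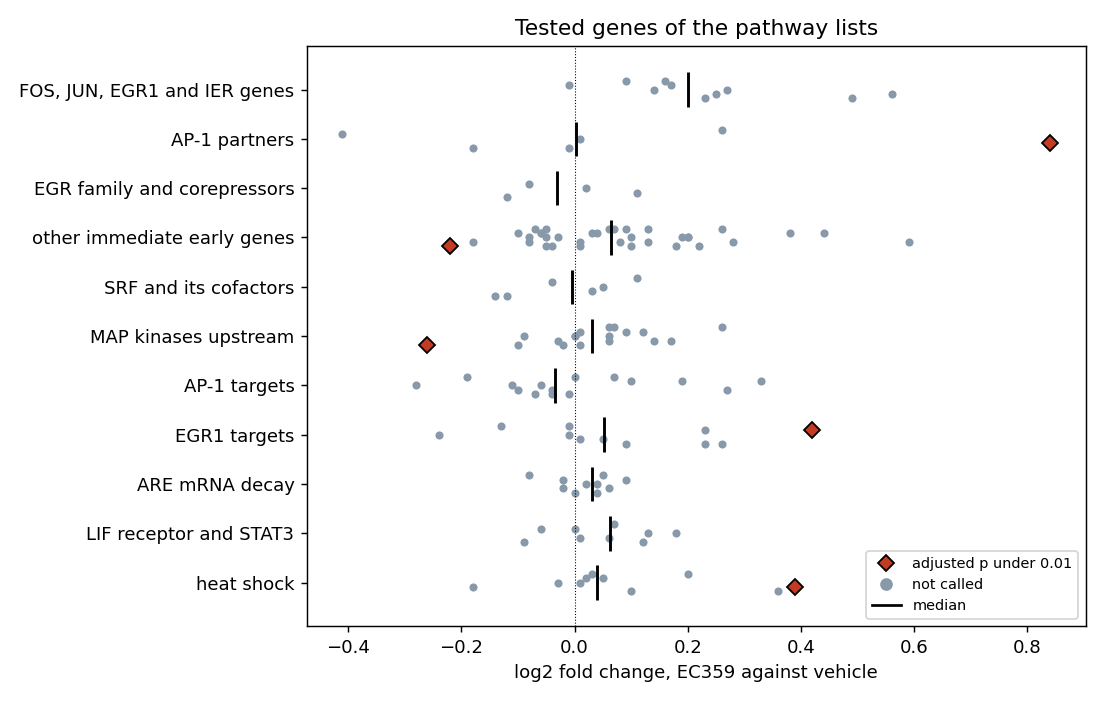
Log2 fold change, EC359 against vehicle, of each tested gene in the lists, with black bars at the medians and red diamonds for genes with an adjusted p under 0.01. The 10 immediate early genes have a median of 0.20 with none called, and ATF3 at 0.84 is the rightmost gene called.

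Genes that AP-1 is known to induce had 0 of 15 tested called by the quasi-likelihood test. At an unadjusted p under 0.05, 3 were higher, against 10.7% of all genes tested, and 3 were lower, and the median was -0.035. DESeq2 called IL8, and the exact test called 2 of the 15, IL8 and MMP3. How many of the 15 had an adjusted p in DESeq2 was not counted. IL8, a chemokine, had the lowest p of the list, with 10985 and 10730 normalized counts with vehicle and 9923 and 9160 with EC359 (log2 fold change -0.19, adjusted p = 0.0304). MMP3 went the other way (log2 fold change 0.27, quasi-likelihood adjusted p = 0.0475). Of 11 tested genes that EGR1 is known to induce, 1 was called higher and 0 lower, with a median of 0.0528. By an unadjusted p under 0.05, 4 were higher, against 10.7% of all genes tested, and 1 was lower. The exact test called 2, THBS1 and F3. THBS1, which encodes thrombospondin of the extracellular matrix, had 1318 and 1292 normalized counts with vehicle and 1739 and 1748 with EC359 (log2 fold change 0.42, standard error 0.0509, adjusted p = 0.00275).

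The LIF receptor and STAT3 list, which holds the receptor that EC359 is made against, had 0 of 9 called and a median of 0.0621. By an unadjusted p under 0.05, 2 were higher, against 10.7% of all genes tested, and 1 was lower. The exact test called 1, IL6ST. IL6ST, which encodes the shared receptor chain gp130, had the lowest p (log2 fold change 0.18, quasi-likelihood adjusted p = 0.0203). Heat shock genes, which mark protein stress and handling, had 1 gene called. This was HSPA1B, with 1298 and 1299 normalized counts with vehicle and 1626 and 1782 with EC359 (log2 fold change 0.39, adjusted p = 0.00677). Of the 10 tested, 4 were higher at an unadjusted p under 0.05, against 10.7% of all genes tested, and 1 was lower, with a median of 0.0388. DESeq2 and the exact test each called 3 of them, HSPA1A and DNAJB1 besides HSPA1B. HSPA1B has a near-identical copy in HSPA1A, and how reads fall between them is uncertain. The part of protein stress in the change of FOSB and EGR1 was not tested.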

How the data were processed

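RNA from ES2 cells was sequenced in 2 libraries per treatment, all of which were used. Reads were aligned by the authors to hg19 with TopHat2 2.0.8b and counted on NCBI RefSeq genes with HTSeq, whose strand setting is not given in the sources used here. Each library was deposited as 1 table of raw counts per gene. Summary lines that name no gene were left out, and reads on no gene took 10.9 to 12% of uniquely placed reads.

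Low counts were filtered by filterByExpr in edgeR 4.0.16 (minimum count 10, minimum total 15), scaled with TMM and tested with the quasi-likelihood test in R 4.3.3, EC359 against vehicle, on all 4 libraries and without a replicate block. Intervals are at 95%. The fit was tested on simulated data. Alternatives covered other scaling, filters and thresholds, DESeq2 1.42.0, the exact test, limma voom 3.58.1, a replicate block, removal of length and GC trends by splines of 5 degrees of freedom, and each library left out. Places and lengths came from GENCODE lifted to GRCh37, which matched 91.8% of symbols, with older symbols read through RefSeq synonyms. Promoters came from RefSeq on GRCh38.p14.

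The 10 genes and the lists were chosen with earlier results of these data known. Named from each list are up to 3 called genes, or the gene with the lowest p where none was called, and for FOS, JUN and EGR1 the 2 genes of nearest pattern. MMP3, F3, HSPA1A and DNAJB1 were named after their values were seen. The study describes its replicates as biologically independent, and the labels do not say whether they came from separate cultures, so p-values measure the spread between these libraries. Depth sets counting error, which is largest for FOS, FOSB and JUND.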

Additional observations from a re-analysis of the deposited data

How the results depend on the processing

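The count of called genes depended on the processing, while the direction of FOS, FOSB, FOSL1, JUN, EGR1, IER2 and IER3 was the same in every alternative run. Of the 139 called genes, 38 were higher and 101 lower. With total counts only there were 52 higher and 69 lower. The count of called genes was 61 without a filter (16620 genes tested), 230 with DESeq2, 568 with edgeR's exact test, 1149 with the GC trend removed, 1030 with length and GC trends removed, 549 at an adjusted p under 0.05 and 1255 at an unadjusted p under 0.01. Apart from the run without a filter, each of these settings tested 12706 genes. Of the 10 immediate early genes, 0 were called in the main analysis. FOSB and EGR1, 2 genes, were called with the exact test and at an adjusted p under 0.05. FOSB, FOSL1, JUN and EGR1, 4 genes, were called with the GC trend or both trends removed, and FOS, FOSB, FOSL1 and EGR1, also 4, at an unadjusted p under 0.01. RLE and upper-quartile factors, total counts, both filters, limma voom and removal of the length trend called 0 of them, and DESeq2 0 of the 6 for which it gave an adjusted p. The cause of these changes was not tested.

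Replicate numbers are shared between the treatments, and no source says that a number marks a batch. Deviations of same-numbered libraries had a correlation of 0.112 across genes. With a replicate block 1539 of the 12706 genes tested were called, and 6 of the 10 (FOS, FOSB, FOSL1, JUN, EGR1 and IER2). With the replicate block and both trends removed there were 1946 of 12706 and again 6 (FOS, FOSB, FOSL1, JUN, EGR1 and IER3). A block leaves less of each gene's own values to measure its spread, so these calls lean more on the spread pooled over genes.

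Leaving out each library in turn gave 0 to 539 called genes and 0 to 5 of the 10, with the lone library assumed to vary like the other group. Without vehicle replicate 2 there were 539, with FOSB, FOSL1, JUN, JUNB and EGR1 among them. Without vehicle replicate 1 there were 390, without EC359 replicate 1 there were 0, and without EC359 replicate 2 there were 2, and each of these held 0 of the 10. FOSL2 reversed to a log2 fold change of 0.01 with total counts only, with the GC trend removed and without vehicle replicate 2, and to 0.02 without EC359 replicate 1. Over the libraries left out, FOSL2 ran from -0.04 to 0.02, JUNB from 0.00 without vehicle replicate 1 to 0.51, JUND from -0.01 without EC359 replicate 2 to 0.47 without EC359 replicate 1, JUN from 0.06 to 0.27, IER2 from 0.05 to 0.28 and IER3 from 0.01 to 0.17.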
